A study of Mus musculus with 3 samples.

Results

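The 80 genes described here encode the proteins of the cytosolic ribosome. They are the symbols in the deposited gene list that begin with Rpl (48 genes, large subunit) or Rps (32 genes, small subunit), leaving out the Rps6k kinases, Rpl7l1 and pseudogenes marked -ps, with a mean over the 3 libraries of at least 50 CPM (unique molecular identifiers of a gene, scaled to the same library total). They are 80 of 33696 genes in the files and 80 of the 2971 genes that reached 50 CPM. Of 86 symbols that passed the name rule, 6 stayed below 50 CPM. The 3 just inside the limit were Rps27l at 508 CPM, Rpl36al at 719 CPM and Rpl22l1 at 752 CPM, and the 3 just outside it were Rps27rt at 34.6 CPM, Rps19bp1 at 30.4 CPM and Rpl39l at 3.03 CPM, so the limit fell in a wide gap. The name rule leaves out Fau and Rack1, which also encode ribosomal components.

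The cells were TCR-transgenic pmel CD8+ T cells, which recognise the melanoma antigen gp100, transferred into irradiated C57BL/6 mice carrying subcutaneous B16F10 melanoma, a mouse tumor line, in a low-dose regimen. From tumors taken on day 18, live CD8+ cells carrying Thy1.1 were sorted and sequenced, 1 library for each of 3 treatments. sIL-2 is a mutant IL-2 that binds IL-2Rβ strongly, and IL-2/21-Trikine (here Trikine) joins it to an IL-21 variant that binds IL-21Rα without signaling. Before transfer, the cells of each group were cultured with gp100 peptide and the cytokine or cytokines of their treatment. Recipients of Trikine cells were then injected with Trikine, and recipients of sIL-2 or sIL-2 + IL-21 cells with sIL-2 alone. C57BL/6 mice were bought at a few weeks of age, and the number of animals behind each library was not given in the sources used here.

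The limits on cells left 7760 sIL-2, 13299 Trikine and 9798 sIL-2 + IL-21 cells, with 130200802, 166772854 and 168041089 unique molecular identifiers (UMIs, each counting 1 captured RNA molecule) and medians of 12882.5, 10254 and 14055.5 UMIs per cell. All 9 T cell markers were detected in each library, at 4526 to 5606 summed CPM. Of 16 myeloid markers 10 reached 1 CPM in each library (summed 212 to 401 CPM, mostly Fcer1g and Cst3). Melanoma markers summed to 2.61 to 10.2 CPM and B cell markers to 11.3 to 31.8 CPM. Erythroid markers summed to 68.9 CPM for sIL-2, 0.198 for Trikine and 0.530 for sIL-2 + IL-21. Only 1, 1 and 4 cells in that order held at least 3 erythroid UMIs. The part of these markers in the results was not tested directly, and values without cells carrying them are given at the end. Between 18 and 41 barcodes were shared by any 2 libraries and 0 by all 3. With 1 library per treatment no difference between treatments could be tested, and every interval between libraries covers counting error only.

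Ribosomal proteins surround and stabilise the ribosomal RNA of the small (40S) and large (60S) subunits. Their messenger RNAs are among the most abundant in a growing cell, and activated T cells expand this pool on entering growth and division. Most of these messenger RNAs start with a 5′ terminal oligopyrimidine (TOP) tract, a C followed by a run of pyrimidines, through which mTORC1 and the LARP1 protein control their translation.

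The tract can be read at the annotated start of some members. RefSeq promoter windows (GRCm38.p6) matched 60 of the 80 members. A C at the annotated start followed by at least 4 bases that are C or T, read on the sense strand, stood at 13 of these 60 members, against 3.25% of 2341 other genes with at least 50 CPM and 2.51% of all 32851 windows. Allowing the C to lie within 5 bases of the annotated start gave 29 of 60, against 24.0% of those other genes and 18.3% of all windows. Each window below runs from 15 bases before the start through the first 15 transcribed bases, with the pyrimidine tract in capitals, for the member with the highest CPM (Rps15a), the S6 kinase target Rps6, the stalk protein Rplp2, and Rps27, Rps27l and Rpl22l1, which carry the contrasts described further on.
Rps15a, chr7:118116133-118116162, minus strand: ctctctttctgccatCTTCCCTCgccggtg
Rps6, chr4:86857353-86857382, minus strand: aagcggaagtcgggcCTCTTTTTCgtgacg
Rplp2, chr7:141447636-141447665, plus strand: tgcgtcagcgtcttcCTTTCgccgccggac
Rps27, chr3:90213634-90213663, minus strand: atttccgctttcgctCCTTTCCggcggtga
Rps27l, chr9:66946071-66946100, plus strand: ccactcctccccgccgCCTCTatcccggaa
Rpl22l1, chr3:28805493-28805522, plus strand: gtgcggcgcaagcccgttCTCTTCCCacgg
In Rps15a, Rps6, Rplp2 and Rps27 the tract begins at the annotated start, in Rps27l 1 base after it and in Rpl22l1 3 bases after it. Rps27l has another annotated start, not shown, without the tract. A window without the tract says only that these letters are not at the annotated start used here.

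Ribosomal protein transcripts made up a large part of all UMIs. Their summed share was 23.6% for sIL-2, 27.2% for Trikine and 25.2% for sIL-2 + IL-21. Counting error was small at this depth, with a 95% exact binomial interval of 27.15% to 27.16% for Trikine. The median share per cell was 23.0%, 26.5% and 24.9% in the same order, and the lower and upper quartiles of cells were 19.9% and 26.1%, 22.6% and 30.2%, and 22.1% and 27.8%. The Trikine library was thus the highest and sIL-2 the lowest, and the ranges between quartiles overlapped. Cells within a library differed far more than sampling of their UMIs allows, with an SD of 5.91, 7.56 and 5.99 percentage points where counting alone gives 0.394, 0.597 and 0.421. Large subunit transcripts outnumbered small subunit transcripts by a ratio of 1.25, 1.21 and 1.23.

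The share depended on depth. In cells with 2000 to 5000 UMIs the median share was 13.6% for sIL-2, 22.9% for Trikine and 20.4% for sIL-2 + IL-21, and in cells with 10000 to 20000 UMIs it was 24.2%, 28.1% and 25.9%. Trikine was the highest of the 3 libraries in each of 6 depth ranges. Taking all cells below 2000 UMIs together, the median share was 3.52% in 266 sIL-2 cells, 15.3% in 1775 Trikine cells and 4.30% in 364 sIL-2 + IL-21 cells. In the shallowest range (500 to 1000 UMIs) the median mitochondrial share was 4.48%, 1.23% and 9.46%. Cells below 2000 UMIs were left out of the comparisons between cell classes.

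**Figure D1:**
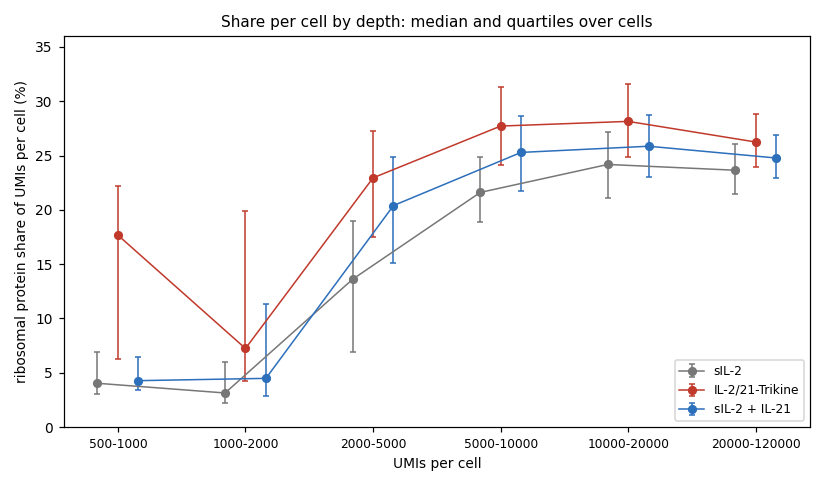
Median share of UMIs from ribosomal protein genes per cell (y axis, percent) by UMIs per cell (x axis), with bars to the lower and upper quartile over cells, 1 line per library. Trikine is highest in every range, at 28.1% against 24.2% and 25.9% between 10000 and 20000 UMIs, and the gap is widest between 500 and 1000 UMIs (17.7% against 4.03% and 4.27%).

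Nearly every member was higher in Trikine than in sIL-2 cells. In summed CPM 77 of 80 members lay above 0 on the log2 scale, with a median log2 ratio of 0.19 and a range of -0.06 to 0.52, where the median over all 2971 genes was -0.05. A log2 ratio of at least 0.25 was reached by 25 members upward, against 12.7% of all genes, and by 0 downward, against 21.6%. The medians of large and small subunit members were 0.18 and 0.22. Scaling by TMM or DESeq2 size factors in place of total UMIs raised the median to 0.26 and left 0 members below 0. The number past 0.25 was 41 with either, beside 19.5% and 18.6% of all genes.

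Rpl41, Rps26 and Rps29 were among the members with the highest ratios. Rpl41, the smallest ribosomal protein, stood at 2224 CPM for sIL-2, 3132 for Trikine and 3233 for sIL-2 + IL-21, a log2 ratio of 0.49 for Trikine over sIL-2. Rps26, which is mutated in Diamond-Blackfan anemia, stood at 3086, 4290 and 4194 CPM, and Rps29 at 1088, 1473 and 1354 CPM. For these members the sIL-2 library was thus the low one, and for Rpl41 and Rps26 the other libraries lay close together.

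The lowest ratios belonged to Rpl3, Rpl4, Rpl7a, Rpl10 and Rps6. Rpl3, a protein of the peptidyl transferase centre, stood at 1956, 1871 and 1977 CPM, a log2 ratio of -0.06 (-0.07 to -0.06) for Trikine over sIL-2. Rpl4 was at 1499, 1450 and 1361 CPM and Rpl10, which joins the large subunit late in its assembly, at 1556, 1560 and 1655 CPM. Rps6, the S6 kinase substrate, was nearly level at 2059, 2080 and 1950 CPM.

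Trikine and sIL-2 + IL-21 lay closer together. The median log2 ratio of Trikine over sIL-2 + IL-21 was 0.10, with 67 of 80 members above 0, where all genes had a median of 0.01. Only 4 members reached 0.25 upward (12.2% of all genes did) and 1 downward (10.2% of all genes). The members were Rps27 at 0.39, Rps24 at 0.32, Rpl37a at 0.30 and Rpl23 at 0.26, followed by Rpl34 at 0.25, just short of the limit, and at the other end Rps27l at -0.29, Rpl22l1 at -0.25, also just short of it, Rpl31 at -0.16, Rpl35 at -0.10 and Rpl10 at -0.09. The share of members past the limit was below that of all genes in both directions.

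sIL-2 over sIL-2 + IL-21 gave a median log2 ratio of -0.10, with 61 of 80 members below 0, where all genes had a median of 0.04. No member reached 0.25 upward (0 of 80, against 29.4% of all genes), and 11 reached it downward (18.7% of all genes). Among the lowest were Rpl41 at -0.54, Rpl31 at -0.50, Rps26 at -0.44 and Rpl28 at -0.40, and among the highest Rps27 at 0.15, Rpl4 at 0.14, Rpl9 at 0.13 and Rpl19 at 0.12. TMM or DESeq2 scaling moved the median to -0.17. The number past the limit downward became 22 and 23, beside 26.0% and 26.3% of all genes.

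The order sIL-2, then sIL-2 + IL-21, then Trikine held for 48 of 80 members, among them the most abundant 4 (Rps15a, Rplp1, Rpl13 and Rps14). Rps15a was at 8216, 9140 and 9797 CPM in that order, Rplp1 at 6382, 7007 and 7472 CPM, Rpl13 at 6140, 6520 and 7230 CPM and Rps14 at 5539, 5920 and 6050 CPM. Rps24, the next in abundance, put sIL-2 + IL-21 lowest at 5135 CPM, against 5327 for sIL-2 and 6409 for Trikine. These are counts of molecules without length scaling.

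**Figure D2:**
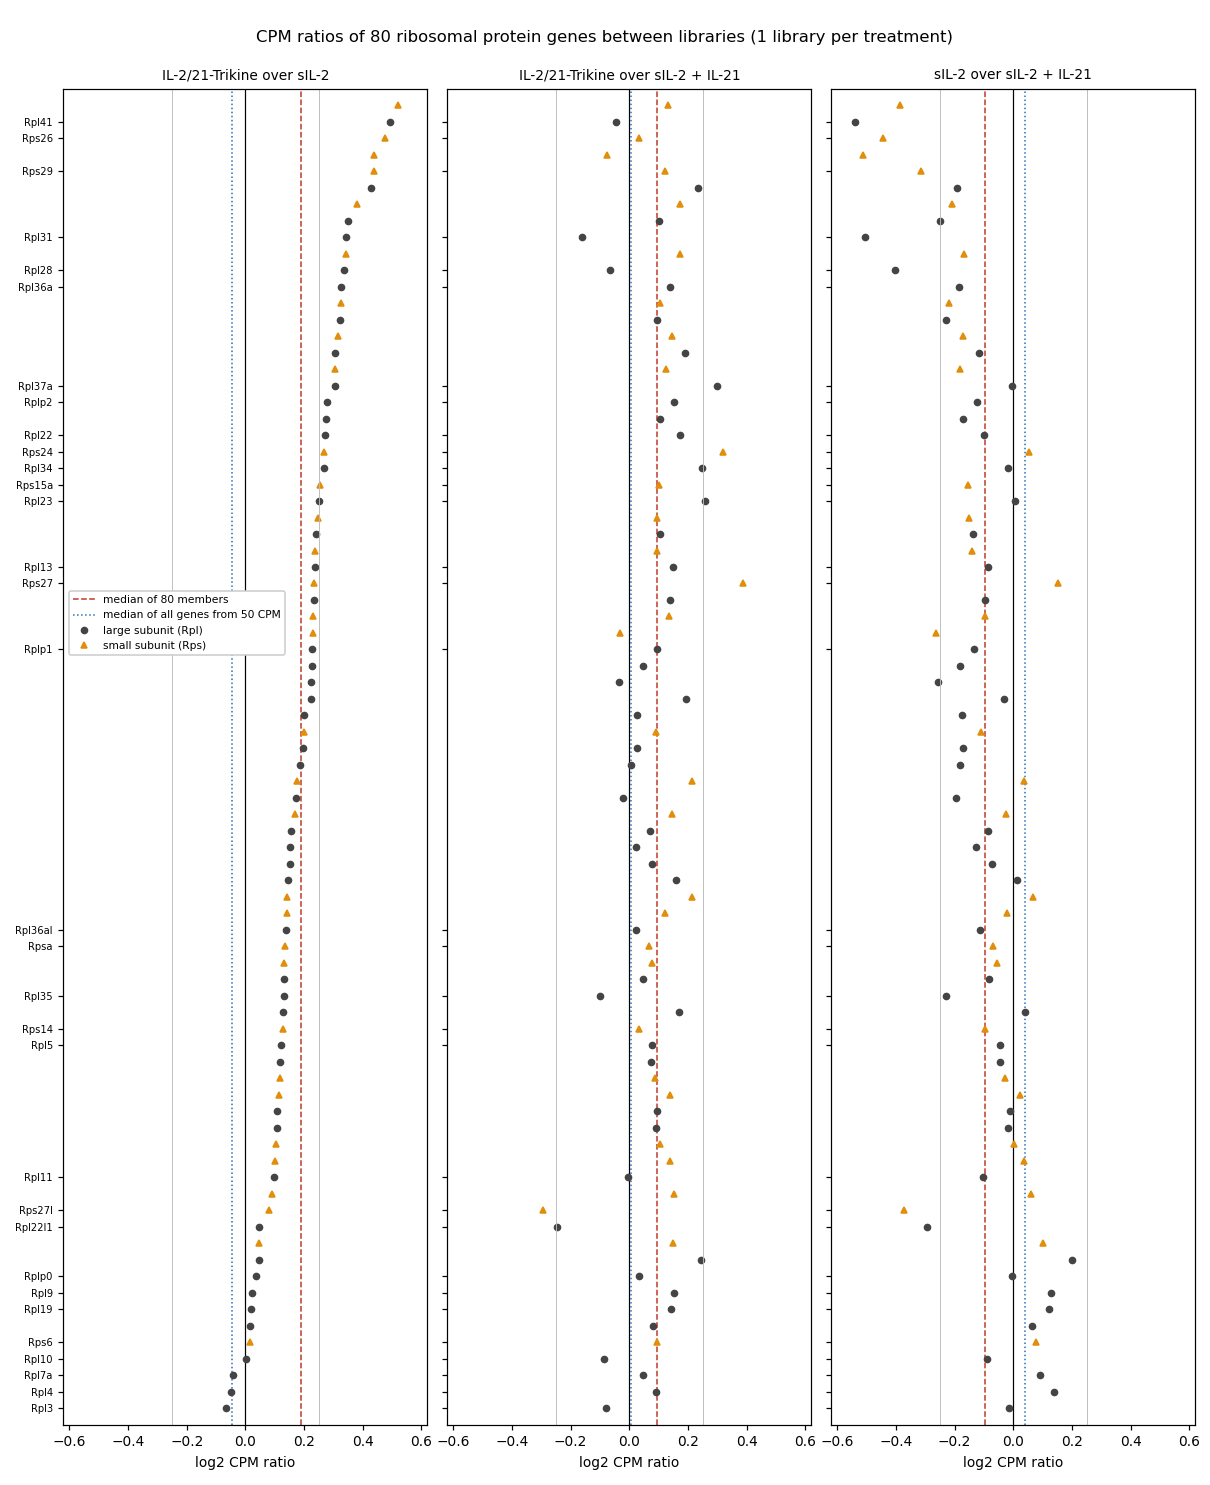
Log2 CPM ratio of each of the 80 members (y axis, ordered by the first panel, with the members described in the text labelled) for the 3 pairs of libraries, large subunit members as circles and small subunit members as triangles. Dashed lines mark the median of the members (0.19, 0.10 and -0.10), dotted lines the median of all 2971 genes, and grey lines a log2 ratio of 0.25 in either direction.

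The ratios between libraries held within the cell classes defined further on. Trikine over sIL-2 had a median log2 ratio over the 80 members of 0.16 in cycling and 0.26 in other cells, 0.22 in Tcf7-positive and 0.19 in other cells, and 0.14 in granzyme-positive and 0.23 in other cells. By depth, the same median was 0.65 in cells with 2000 to 5000 UMIs, 0.32 with 5000 to 10000, 0.20 with 10000 to 20000 and 0.14 above 20000 UMIs. All of these pointed the same way, and the size was smaller in deeper cells. Whether depth plays a part in the difference between libraries was not tested.

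Members with a short coding sequence had higher ratios of Trikine over sIL-2 than those with a long one. Coding length (longest coding sequence in GENCODE M21) was found for all 80 members, with a median of 454.5 bases. The 40 shorter members had a median log2 ratio of Trikine over sIL-2 of 0.27 and the 40 longer ones of 0.13, and Spearman's rho between length and ratio was -0.63 over the 80 members. For the pair sIL-2 and sIL-2 + IL-21 the medians were -0.15 and -0.05 (rho 0.43), and for Trikine over sIL-2 + IL-21 they were 0.10 and 0.09 (rho -0.23). Other genes from 50 CPM, of which 98.1% had a length, showed a rho of -0.37, 0.49 and 0.37 for these pairs, so a relation with length in the libraries was not limited to ribosomal proteins, and in the last pair the sign differed. Length was examined after the values had been seen, the points share the same libraries, and its part in the ratios was not tested.

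**Figure D3:**
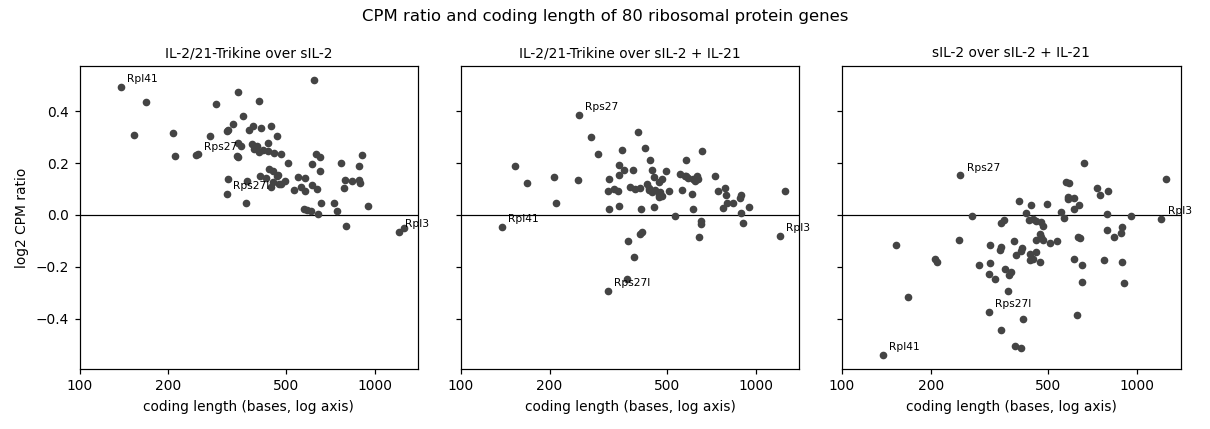
Log2 CPM ratio (y axis) against coding length in bases (x axis, log scale) for the 80 members, 1 panel per pair of libraries. In the first panel the shorter members sit higher (median 0.27 against 0.13), with Rpl41 at the upper and Rpl3 at the lower end.

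Among other genes of translation, ribosome assembly factors and mitochondrial ribosomal proteins were also higher in Trikine cells than in sIL-2 cells. Of 24 ribosome biogenesis genes measured at 50 CPM or more, 21 lay above 0 (median 0.26), led by Nop10 at 0.60 and Nop58 at 0.50, both components of box H/ACA or C/D particles, and ending with Ddx10 at -0.10. Of 45 mitochondrial ribosomal protein genes 42 lay above 0 (median 0.24). Over all 2971 genes 43.7% lay above 0. The 25 TOP and elongation genes and the 26 initiation factors stayed near 0, with medians of 0.03 and 0.05. Fau and Rack1 followed the members, at 0.13 and 0.11.

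In sIL-2 over sIL-2 + IL-21 the mitochondrial ribosomal proteins were lower than the cytosolic ones. Their median log2 ratio was -0.32, with 33 of 45 past -0.25, beside -0.10 and 11 of 80 for the cytosolic members and 18.7% of all genes. The biogenesis list had a median of -0.08 in that pair, from Nhp2 at -0.37 to Gnl3 at 0.19. In Trikine over sIL-2 + IL-21 mitochondrial ribosomal proteins had a median of -0.09 and biogenesis genes of 0.14. Of the list on ribosome stress, the p53 target Cdkn1a was at 484 CPM for sIL-2, 207 for Trikine and 274 for sIL-2 + IL-21.

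Cell classes were then compared inside each library. After drawing 2000 UMIs from every cell, cells with at least 2 UMIs of an S phase list or of a G2/M list were called cycling, cells with at least 1 Tcf7 UMI Tcf7-positive (Tcf7 encodes TCF-1, the factor of stem-like T cells), and cells with at least 2 UMIs of Gzmc to Gzmg together granzyme-positive (cytotoxic effector proteases). Cycling cells were 48.0%, 58.9% and 65.0% of cells (sIL-2, Trikine, sIL-2 + IL-21), Tcf7-positive cells 12.8%, 12.3% and 5.87%, and granzyme-positive cells 29.5%, 28.0% and 60.0%. Tcf7 was at 60.3, 59.9 and 21.7 CPM in the same order, so the draw can miss it in cells that express it. The other cells can thus include cells that express Tcf7, and the percentages are not the shares of all such cells. The classes overlap and share cells. UMIs were summed over the cells in and outside a class in each library and tested with edgeR's quasi-likelihood test with library as a block, with Benjamini-Hochberg adjustment over all genes tested. The 3 libraries are 3 treatments, so the spread in these tests mixes treatment and sample.

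In cycling cells a group of ribosomal protein genes fell slightly and a few rose. Of 80 members 21 were called lower at an adjusted p under 0.05 in edgeR, beside 24.8% of all 7305 genes, and 5 were called higher, beside 31.2%. The median fold change of the members was -0.05 on the log2 scale (all genes 0.01), and the quartiles of the members were -0.10 and 0.02 where those of all genes were -0.13 and 0.18. The members' median in single libraries was -0.01 for sIL-2, -0.09 for Trikine and -0.06 for sIL-2 + IL-21. Members called lower were near the background in share, and those called higher were below it.

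The strongest fall in cycling cells was that of Rps27, at 1283 CPM in cycling and 1498 in other cells for sIL-2, 1511 and 1871 for Trikine, and 1170 and 1452 for sIL-2 + IL-21, a fitted log2 fold change of -0.28 ± 0.04 (SE, edgeR, Benjamini-Hochberg adjusted p = 0.000752). Rps24 (-0.18), Rpl30 (-0.17) and Rpl19 (-0.16) fell with it. Rps27l rose, at 485 CPM in cycling and 415 in other cells for sIL-2, 504 and 435 for Trikine, and 624 and 478 for sIL-2 + IL-21, a log2 fold change of 0.27 ± 0.05 (adjusted p = 0.00209, edgeR). Rpl31 (0.16), Rpl22l1 (0.13) and Rpl28 (0.10) also rose. In all 8 of these members the 3 libraries had the same sign. Rps27 was called in the same direction in all 18 alternatives run, Rps27l in 15, Rpl28 in 11 and Rpl22l1 in 9.

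The number of members called lower in cycling cells varied with the libraries and cells used, more than their median fold change did. It was 4 without Trikine (median -0.03, 19.2% of all genes called lower), 10 without sIL-2 + IL-21 (-0.05, 24.3%) and 27 without sIL-2 (-0.08, 17.9%). Among cells with 5000 to 20000 UMIs it was 1, with 1 called higher, a median of -0.04, and 8.81% of all genes called lower and 17.6% higher. Median depth was 16063 UMIs in cycling and 11765 in other cells for sIL-2, 14442.5 and 9215.5 for Trikine, and 18209 and 10227.5 for sIL-2 + IL-21. The fixed 2000 UMIs from which classes were called include UMIs of the members, and the part of this in the calls was not tested. When 2000 UMIs of genes other than the members were drawn instead, 12 members were called lower and 7 higher. Of all genes 23.0% were called lower and 28.3% higher, and the members' median was -0.02.

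The share per cell gave no common direction for cycling cells. The median share of cycling minus that of other cells was 0.35 percentage points for sIL-2, -1.34 for Trikine and -0.998 for sIL-2 + IL-21, a mean of -0.66 ± 0.89 (SD, n = 3; exact sign-flip permutation test, two-sided p = 0.5, where 3 libraries allow no p below 0.25). sIL-2 went one way and the others the opposite way. The mean was near 0 when classes were drawn from genes other than the members (-0.026) or from the S phase list alone (-0.0012). In both settings the libraries still had opposite signs. The differences were 0.67, -0.50 and -0.24 in the first and 0.46, -0.27 and -0.19 in the second (sIL-2, Trikine, sIL-2 + IL-21).

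Rps27l, Rpl31 and Rpl22l1, called higher in cycling cells, were called lower in Tcf7-positive cells, which come from the same libraries. Of 80 members 10 were called higher, beside 25.8% of all 7354 genes, and 9 lower, beside 18.4%, both below the background. The median was 0.02 (all genes 0.03). TMM scaling moved the members and all genes down together, to medians of -0.01 and -0.01, with 2 members called higher and 11 lower beside 20.5% and 23.3% of all genes. DESeq2 did the same, with medians of -0.02 and -0.02 and 1 and 10 members beside 16.5% and 20.2% of all genes. Among cells not called cycling the members had a median of -0.02 and all genes of 0.05, with 3 members called higher and 19 lower beside 22.5% and 11.6% of all genes. Without sIL-2 edgeR called 0 members in either direction and 0.0273% of all genes higher and 0.246% lower, and without Trikine 3 members higher and 5 lower beside 19.3% and 12.8% of all genes. At an unadjusted p under 0.05, 30 of 80 members passed in either direction with all 3 libraries. The share of all genes at that limit was not at hand. It is at least the 25.8% higher and 18.4% lower called above together, since every gene called there also passes the unadjusted limit. The count of 30 thus shows no excess of members over all genes.

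Rps27l fell most in Tcf7-positive cells, at 360 CPM in them and 465 in other cells for sIL-2, 402 and 493 for Trikine, and 442 and 595 for sIL-2 + IL-21, a log2 fold change of -0.36 ± 0.05 (SE, adjusted p = 0.00301, edgeR). Rpl22l1 (-0.22), Rpl31 (-0.13) and Rps2 (-0.13) fell too. Rps27 rose most, by 0.23 ± 0.04 (adjusted p = 0.00675, edgeR), from 1357 CPM in other cells to 1553 for sIL-2, from 1601 to 1802 for Trikine and from 1226 to 1536 for sIL-2 + IL-21. Rps21 (0.14), Rps24 (0.13) and Rpl37a (0.12) rose with it. All 8 had the same sign in the 3 libraries and kept their direction in all 17 alternatives, with Rps27 and Rps27l called in 16 of them and Rpl37a in 9.

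Per cell, the median share of Tcf7-positive minus other cells was -0.07 percentage points for sIL-2, 0.60 for Trikine and 0.75 for sIL-2 + IL-21, a mean of 0.43 ± 0.44 (SD, n = 3; exact sign-flip permutation test, two-sided p = 0.5). Among cells not called cycling it was -0.24, -0.26 and -0.31, a mean of -0.27 ± 0.04 (n = 3; the same exact test gave p = 0.25, the smallest it allows). Tcf7-positive cells were shallower, with a median of 9914 against 13919 UMIs for sIL-2, 9332 against 11922 for Trikine and 8414 against 15127.5 for sIL-2 + IL-21.

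In granzyme-positive cells 9 members were called higher, beside 24.7% of all 7359 genes, and 10 lower, beside 34.8%. The median was 0.002 (all genes -0.04). TMM scaling gave 9 higher and 1 lower, beside 29.8% and 28.2% of all genes, and DESeq2 15 and 1, beside 26.4% and 24.1%. Cells not called cycling gave 16 and 2, beside 24.1% and 39.1%. Leaving out sIL-2 gave 3 higher and 4 lower (17.5% and 24.4% of all genes), leaving out Trikine 10 and 2 (19.5% and 29.5%), and leaving out sIL-2 + IL-21 6 and 1 (21.4% and 31.1%). The count of members lower in these cells thus changed with the scaling and without any 1 library, and it stayed below the share of all genes throughout these settings.

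Rpl22l1 rose most in granzyme-positive cells, at 801 CPM in them and 613 in other cells for sIL-2, 824 and 654 for Trikine, and 897 and 719 for sIL-2 + IL-21, a log2 fold change of 0.35 ± 0.04 (SE, adjusted p = 0.000487, edgeR). Rpl28 (0.19), Rpl10 (0.17) and Rpl31 (0.17) followed. Rps27 fell most, by 0.26 on the log2 scale, from 1479 CPM in other cells to 1240 for sIL-2, from 1733 to 1443 for Trikine and from 1416 to 1173 for sIL-2 + IL-21. Rpl34 (-0.15), Rps21 (-0.15), Rps24 (-0.14) and Rpl19 (-0.12) fell with it. Rpl22l1 and Rps27 were called in the same direction in all 18 alternatives, and Rpl19 in 10 of them.

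The median share of granzyme-positive minus other cells was 1.01 percentage points for sIL-2, -1.03 for Trikine and 0.16 for sIL-2 + IL-21, a mean of 0.05 ± 1.03 (SD, n = 3; exact sign-flip permutation test, two-sided p = 1). Among cells not called cycling it was 1.99, 0.33 and 0.98, a mean of 1.10 ± 0.84 (n = 3; exact p = 0.25, the smallest the test allows). Granzyme-positive cells were deeper, with a median of 20925.5 against 11138 UMIs for sIL-2, 16856.5 against 9987.5 for Trikine and 18782 against 9554 for sIL-2 + IL-21.

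**Figure D4:**
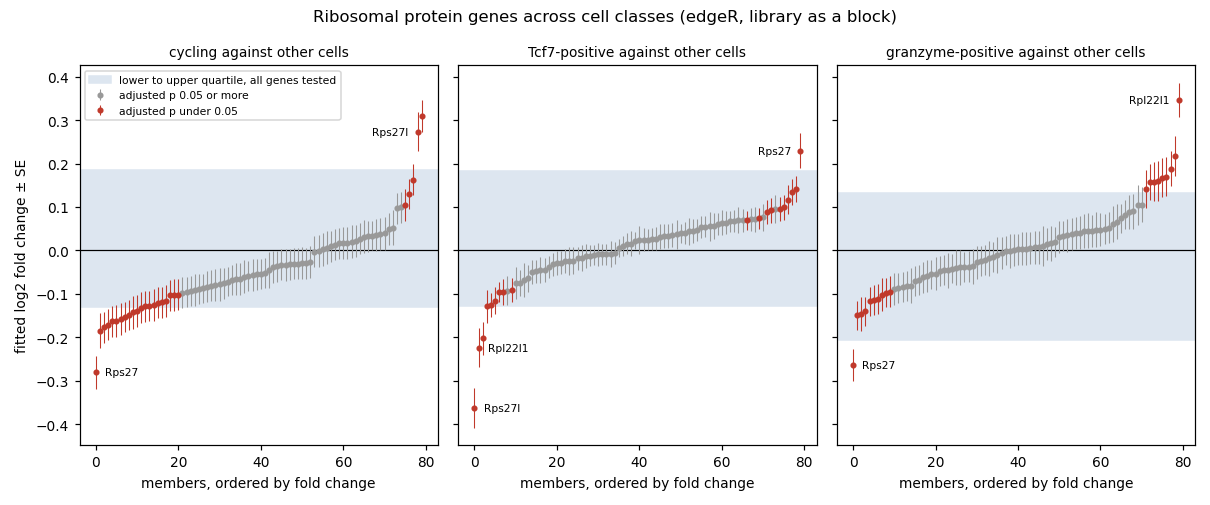
Fitted log2 fold change ± SE (edgeR) of the 80 members in cycling, Tcf7-positive and granzyme-positive cells against other cells, ordered within each panel, with members at an adjusted p under 0.05 in red and the range between the quartiles of all genes tested shaded. Most members lie inside the shaded band, and the labelled members, such as Rps27 and Rps27l in cycling cells, lie outside it.

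Changes of the members between classes were small in size. The median absolute log2 fold change was 0.07 for members and 0.16 for all genes in cycling cells, 0.05 and 0.16 in Tcf7-positive cells, and 0.05 and 0.17 in granzyme-positive cells. An absolute change of 0.25 was reached by 3, 1 and 2 of 80 members, where 31.1%, 28.5% and 34.0% of all genes reached it. The members are among the genes with the highest counts, and no comparison with other genes at their level was made.

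The variants Rps27l and Rpl22l1 were among the members with the largest changes, beside Rps27. Rps27l is a paralog of Rps27 that p53 induces, and Rpl22l1 a paralog of Rpl22, an RNA-binding protein needed in T cell development. Rps27 was lower and Rps27l higher in cycling cells in all 3 libraries (log2 ratios of -0.22, -0.31 and -0.31 beside 0.22, 0.21 and 0.38 in the order sIL-2, Trikine, sIL-2 + IL-21), and in Tcf7-positive cells the directions were exchanged (0.19, 0.17 and 0.33 beside -0.37, -0.29 and -0.43). In granzyme-positive cells Rps27l rose by 0.16 (adjusted p = 0.0180, edgeR), a change that turned to -0.01 in 1 of 18 alternatives.

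Rpl22 was at 1939 CPM for sIL-2, 2342 for Trikine and 2078 for sIL-2 + IL-21, and Rpl22l1 at 692, 715 and 849 CPM. In cycling cells Rpl22 fell by 0.12 (adjusted p = 0.0286, edgeR) and Rpl22l1 rose by 0.13 (adjusted p = 0.0170). In the other classes Rpl22 did not pass the test, with values of 0.06 in Tcf7-positive and -0.09 in granzyme-positive cells. Rpl36al and its partner Rpl36a did not pass it in any of the 3 classes, with values between -0.08 and 0.02. None of the 3 pairs shared a stretch of 50 bases in the last 600 bases of their GENCODE M21 transcripts. Rps27rt, another copy of Rps27, was counted at 29.0, 44.6 and 30.2 CPM and was not compared in this way, so the split of reads between Rps27 and its copies remains uncertain, as it does for other members with pseudogenes.

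**Figure D5:**
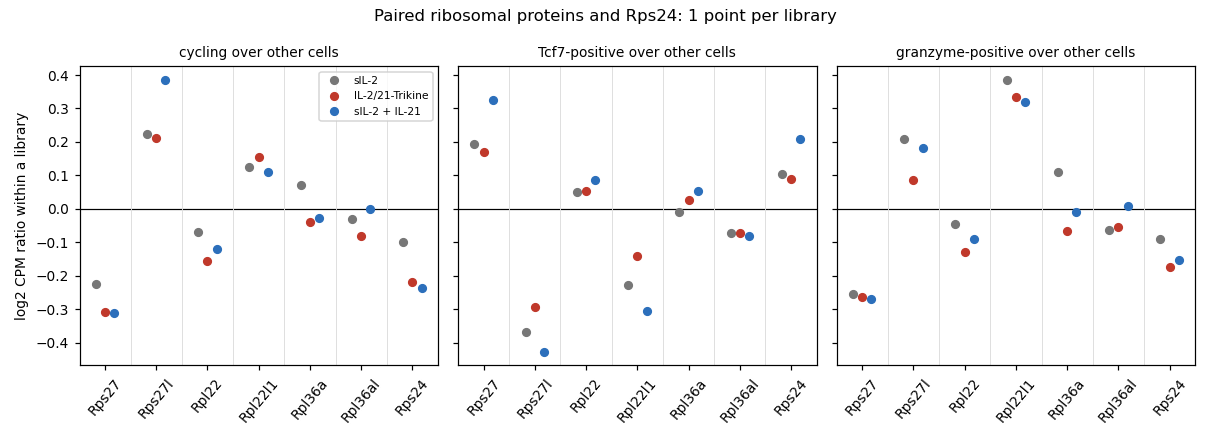
Log2 CPM ratio of a class over other cells within each library (y axis) for the paired genes Rps27 and Rps27l, Rpl22 and Rpl22l1, Rpl36a and Rpl36al, and for Rps24, with 1 point per library. Rps27 and Rps27l lie on opposite sides of 0 in every panel, and the 3 libraries fall on the same side for both.

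The stalk proteins, Rpsa, Rpl5, Rpl11 and Rps6 did not pass the test in cycling, Tcf7-positive or granzyme-positive cells. The stalk proteins Rplp0, Rplp1 and Rplp2, which recruit elongation factors to the ribosome, had log2 fold changes between -0.10 and 0.07 (Rplp2 at -0.10 in cycling cells, adjusted p = 0.0501 in edgeR). Rpsa, Rpl5 and Rpl11, of which Rpl5 and Rpl11 carry the 5S RNA and bind Mdm2, had log2 fold changes between -0.07 and 0.04, and Rps6 between -0.02 and 0.01. Between libraries Rplp0 was at 3255, 3337 and 3266 CPM (sIL-2, Trikine, sIL-2 + IL-21), Rpsa at 3491, 3833 and 3663 CPM, Rpl5 at 3465, 3774 and 3579 CPM and Rpl11 at 3116, 3333 and 3344 CPM. Fau, left out by name, fell by 0.20 in cycling cells (adjusted p = 0.00232, edgeR).

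Lists of other translation genes showed larger medians in some classes. In cycling cells 59 of 77 mitochondrial ribosomal protein genes tested rose and 2 fell (median 0.26), led by Mrpl18 at 0.78 and Mrpl28 at 0.65, and in Tcf7-positive cells 43 fell and 1 rose (median -0.19). In granzyme-positive cells, where 34.8% of all genes were called lower and 24.7% higher, 34 of 39 ribosome biogenesis genes fell and 0 rose (median -0.39), with the nucleolar proteins Gnl3 at -0.75 and Ddx21 at -0.70 at the low end, while 36 of 77 mitochondrial ribosomal protein genes rose and 3 fell. In Tcf7-positive cells, where 18.4% of all genes were called lower and 25.8% higher, 18 of 39 biogenesis genes and 14 of 28 initiation factors fell and 0 of either list rose. Of the 25 TOP and elongation genes 9 fell and 2 rose in cycling cells, 6 fell and 6 rose in Tcf7-positive cells, close to the shares of all genes, and 9 fell and 2 rose in granzyme-positive cells, where the noncoding TOP RNA Snhg12 fell by 0.62. The ribosomal proteins of the cytosol and of mitochondria thus had medians of opposite sign in cycling cells, where 31.2% of all genes were called higher.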

How the data were processed

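The deposited files hold unnormalized UMI counts for each gene in each cell, which the authors obtained from 10x 3′ libraries through Cell Ranger (version 9.0.0 in the matrix header). The submitters' processing notes name mm10 while the study's methods name a GRCm39 reference, so no coordinates were taken from the count files. Cells with 500 to 120000 UMIs and at most 20% mitochondrial UMIs were kept. Doublets were not removed. CPM are UMIs summed over cells and scaled to the library total. Counting only uniquely assigned reads can lower the counts of members with near-identical copies. Intervals between libraries are exact and conditional on the summed counts (95%, counting error only). Classes were tested on 6 sums with edgeR 4.0.16 (R 4.3.3), genes from 10 CPM, total UMIs as library size and library as a block, with DESeq2 1.42.0 as an alternative. The scripts were tested on simulated data. Named genes are the highest and lowest 5 members per comparison, the most abundant 5, those around 50 CPM and a list of known roles, of which a few are not reported here. The members and lists were chosen with earlier results of these data known. Leaving out cells by narrower marker lists and drawing classes from genes other than the members were alternatives chosen after seeing the data. Between libraries, genes from 50 CPM were compared and a log2 ratio of 0.25 was the limit. The share between classes was compared with an exact sign-flip permutation test over the 3 libraries. The number of animals per library is not given, so no p-value measures the spread between animals. The edgeR p-values and SEs rest on a spread between these 3 libraries that is moderated toward that of other genes. They do not measure the spread of a gene's own 3 values.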

Additional observations from a re-analysis of the deposited data

Results flagged for a closer look

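The effect of a class on the share per cell pointed in opposite directions in different libraries. Cycling cells had a median ribosomal protein share 0.35 percentage points above other cells for sIL-2, while the difference was -1.34 for Trikine and -0.998 for sIL-2 + IL-21. Granzyme-positive cells differed by 1.01 points for sIL-2, -1.03 for Trikine and 0.16 for sIL-2 + IL-21. Tcf7-positive cells differed by -0.071 points for sIL-2, 0.60 for Trikine and 0.75 for sIL-2 + IL-21. With 1 library per treatment these differences between libraries were not tested.

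Cells with fewer than 2000 UMIs, which the class comparisons leave out, had a median ribosomal protein share of 15.3% for Trikine, above 3.52% for sIL-2 and 4.30% for sIL-2 + IL-21. They were 13.3% of the Trikine cells kept and 3.43% and 3.72% of the others. The cause was not tested.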

How the results depend on the processing

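Between libraries, all alternatives kept the sign of the members' median log2 ratio. For Trikine over sIL-2 it was 0.17 with each cell counted equally, 0.23 with 2000 UMIs drawn per cell or without cells with 3 UMIs of another cell type (0.225), 0.198 with members from 10 CPM, and 0.26 in cells not called cycling, with TMM or with DESeq2 factors. For Trikine over sIL-2 + IL-21 it was 0.051, 0.11 and 0.105 under the first of these settings, 0.12 in cells not called cycling and 0.086 with DESeq2 factors. The pair sIL-2 and sIL-2 + IL-21 gave -0.11 with each cell counted equally, -0.12 with UMIs drawn, -0.13 without cells of other types, -0.14 in cells not called cycling and -0.17 with TMM or DESeq2 factors.

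In cycling cells DESeq2 called 33 members lower, beside 25.3% of all genes. Classes drawn from genes other than the members gave 12, beside 23.0%. Between 5000 and 20000 UMIs 1 was called lower, beside 8.81%, and without 1 library 4 to 27, beside 17.9% to 24.3%. Settings without a share of all genes at hand, here and below, cannot be set against the background. In cycling cells they gave 33 with 1 more marker UMI and 35 and 10 with classes from 1000 and 5000 UMIs. Among them were also 4 without cells of other types, 7 with the S phase list and 4 with the G2/M list. Those called higher were 3 with DESeq2 (22.9% of all genes) and 1 between 5000 and 20000 UMIs (17.6%). They were 2 to 5 without 1 library (25.1% to 30.4%), and 2 with 5000 UMIs or the G2/M list, without a share at hand. The S phase list moved the median to -0.0061, and the G2/M list the mean share difference to 0.030 percentage points. With the G2/M list the libraries differed in sign, at 0.62 for sIL-2, -0.18 for Trikine and -0.34 for sIL-2 + IL-21. In Tcf7-positive cells those called higher were 2 with TMM (20.5% of all genes) and 1 with DESeq2 (16.5%). They were 3 in cells not called cycling (22.5%) or between 5000 and 20000 UMIs (20.8%), and 0 to 12 without 1 library (0.0273% to 28.2%). Settings without a share of all genes at hand gave 5 with no filter or drawn counts and 3 with 1 more UMI. Among them were also 4 with 1000 UMIs or without cells of other types. Those called lower were 19 in cells not called cycling (11.6% of all genes) and 0 to 10 without 1 library (0.246% to 19.99%). They were 4 with 1000 UMIs, without a share of all genes at hand. The median turned to -0.014 with TMM, -0.020 with DESeq2 and -0.018 in cells not called cycling, where the share difference was -0.27.

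In granzyme-positive cells those called lower were 1 with TMM (28.2% of all genes) or DESeq2 (24.1%). They were 2 in cells not called cycling (39.1%) or between 5000 and 20000 UMIs (31.1%), and 1 to 4 without 1 library (24.4% to 31.1%). Without a share of all genes at hand, they were 26 with Gzmb at its median and 3 without cells of other types. Those called higher were 15 with DESeq2 (26.4% of all genes). Without a share at hand, they were 15 with drawn counts and 4 with Gzmb. They were 16 in cells not called cycling (24.1%) and 3 to 10 without 1 library (17.5% to 21.4%). The share difference turned to -0.030 with 5000 UMIs and -0.87 with Gzmb, and ran from -0.43 to 0.59 without 1 library. In Myc-positive cells 5 members were called with DESeq2 and 15 to 44 without 1 library, with the shares of all genes given at the end. For the shares, alternatives other than leaving out a library, 1 more UMI and a range of depth were chosen after seeing the data. The causes were not tested. Without a library the remaining 2 are assumed to show the spread.

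The filter on other cell types took out 2995 of 7760 sIL-2, 3507 of 13299 Trikine and 5165 of 9798 sIL-2 + IL-21 cells, with a myeloid list that holds Fcer1g and Cst3, the most abundant of its genes here. A narrower list chosen after seeing the data took out 55, 91 and 34 cells. It left 22 members called lower in cycling (24.7% of all genes), 9 in Tcf7-positive (18.7%) and 10 in granzyme-positive cells (34.8%).

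No paired analysis between treatments was possible because each treatment has 1 library. Class fits keep library as a block throughout. Depth limits the members little, the lowest total being 59132 UMIs (Rps27l, sIL-2), and cells below 2000 UMIs were left out of the classes.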

Other observations

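Cells with at least 1 UMI of Myc, a factor that drives ribosome production, after the same draw of 2000 UMIs were 14.4% of cells for sIL-2, 16.4% for Trikine and 11.5% for sIL-2 + IL-21. In them all 40 ribosome biogenesis genes tested rose (edgeR, Benjamini-Hochberg adjusted p under 0.05), with a median log2 fold change of 0.54, led by Gnl3 at 1.01 and the RNA polymerase I subunit Polr1b at 0.98. Of 28 initiation factors 21 rose and 1 fell, with Eif1a at 0.56 and Eif4e at 0.46. The 80 cytosolic ribosomal protein genes did not rise with them: 37 fell and 1 rose, beside 33.4% of all 7319 genes called lower and 25% called higher, and their median was -0.04, close to the -0.03 of all genes. Rps15a fell by 0.13, Rpl39 by 0.12 and Rps26 by 0.10, and Rpl36al rose by 0.06. The median share per cell was lower by 0.70, 1.26 and 0.79 percentage points (sIL-2, Trikine, sIL-2 + IL-21). Without sIL-2, 15 members fell and 0 rose, beside 26.3% and 21.6% of all genes. Without Trikine it was 15 and 0, beside 21.7% and 18.2%. Without sIL-2 + IL-21, 43 fell and 1 rose, beside 35.0% and 26.2%. DESeq2 called 5 lower and 0 higher, beside 22.3% and 22.1% of all genes. With classes drawn from genes other than the members, 35 fell and 1 rose, beside 32.5% and 25.1%. Myc was at 105, 108 and 67.6 CPM (sIL-2, Trikine, sIL-2 + IL-21), so cells that express it can lie among the other cells.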
